A study of Homo sapiens with 4 samples.

Results

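The urokinase system and the genes that hold matrix proteases in check were examined in Huh7 cells, a line established from a human hepatocellular carcinoma, with and without a CRISPR guide against METTL16, an RNA m6A methyltransferase. Rows of the expression table were taken by gene symbol for 9 genes, PLAU, PLAUR, PLAT, PLG, TIMP1, TIMP2, TIMP3, MMP14 and MMP15, and all 9 were present among 18806 genes. Both groups came from a Huh7 clone that stably expresses Cas9 and carried a lentiviral guide with hygromycin B selection. The control group (sgNS) carried a non-targeting guide and is labelled wild type, and the other group (METTL16 KO) carried sgMETTL16 and is labelled as a METTL16 knockdown. Each group had 2 libraries, which the methods call biological replicates, and both groups derive from 1 clone. The labels name neither separate cultures nor the METTL16 guide, and p-values measure the spread between these libraries. The genes were selected on their TPM in METTL16 KO and sgNS, since the list was drawn up with those values known. The differences are therefore given as a description, with no p-value printed for these genes. Their limma calls are counted beside the share over all genes, and nothing is read from those counts.

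Urokinase, the product of PLAU, is a secreted serine protease that cuts plasminogen (PLG) to plasmin, and its receptor (PLAUR) holds it at the cell surface. PLAT encodes the tissue-type activator of the same zymogen. Plasmin degrades fibrin and matrix proteins and can activate latent metalloproteases. MMP14 and MMP15 encode metalloproteases anchored in the plasma membrane that cleave matrix at the cell surface. TIMP1, TIMP2 and TIMP3 encode inhibitors of metalloproteases, of which TIMP3 binds to the matrix and also inhibits several ADAM and ADAMTS proteases, and TIMP2 additionally links MMP14 to the activation of pro-MMP2. In the liver, plasminogen is made by hepatocytes and circulates as a plasma protein.

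Sequences before the start sites are shown because the ligand PLAU and the inhibitor TIMP3 were higher in METTL16 KO whereas the inhibitor TIMP1 and the receptor PLAUR had overlapping groups. They are from RefSeq on GRCh38.p14, where 7 of the 9 genes were matched and searched, and bases inside exons of the gene were left out except in windows of 30 bases. Capitals mark matches on either strand to a GC box (GGGCGG), to AP-1 (TGANTCA) or to HNF1. The PLAU stretch is chr10:73910882-73911103 on the plus strand, before the downstream of 2 listed starts, the TIMP3 stretch is chr22:32801455-32801704 on the plus strand, and the TIMP1 stretch is chrX:47582186-47582407 on the plus strand. The PLAUR window is chr19:43670338-43670367 on the minus strand, and the PLG window is chr6:160702184-160702213 on the plus strand.
PLAU: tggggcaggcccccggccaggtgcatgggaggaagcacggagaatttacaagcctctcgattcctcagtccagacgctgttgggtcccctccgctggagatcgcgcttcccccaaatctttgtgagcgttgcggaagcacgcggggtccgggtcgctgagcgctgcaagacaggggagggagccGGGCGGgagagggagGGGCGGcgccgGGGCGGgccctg
TIMP3: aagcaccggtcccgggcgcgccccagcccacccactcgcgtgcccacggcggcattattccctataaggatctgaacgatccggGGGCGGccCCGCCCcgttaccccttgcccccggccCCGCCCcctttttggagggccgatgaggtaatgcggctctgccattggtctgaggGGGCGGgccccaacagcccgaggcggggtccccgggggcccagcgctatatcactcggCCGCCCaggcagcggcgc
TIMP1: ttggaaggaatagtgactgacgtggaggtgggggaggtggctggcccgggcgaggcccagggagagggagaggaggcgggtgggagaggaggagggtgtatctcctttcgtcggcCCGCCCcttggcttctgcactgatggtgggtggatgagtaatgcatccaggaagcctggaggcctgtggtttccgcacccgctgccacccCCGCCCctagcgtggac
PLAUR: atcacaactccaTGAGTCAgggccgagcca
PLG: tctctgagagAATCATTAACttaatttgac
The 7 genes have 9 listed starts, and the GC box was found within 250 bases before 5 of these 9 and in 42.6% of 35116 promoters of that length. The AP-1 letters were found before 1 of the 9 starts, that of PLAUR, and in 6.57% of all promoters. The HNF1 motif was found before 1 of the 9, the downstream start of PLG, and in 0.296% of all promoters. This HNF1 match begins at the first base of a PLG exon in GENCODE release 44. The 250 bases before the PLAUR start likewise begin inside an exon of PLAUR in that release. The NF-kB motif (1.73% of all promoters) and the letters TATAAA (10.7%) were found before none of these starts. GC content over the 250 bases was 68.8% for this PLAU start, 72.4% for TIMP3, 64.8% for TIMP1 and 63.2% for PLAUR. MMP15 and MMP14, both lower in METTL16 KO, held GC boxes too, with a GC content of 74.8% and 56.8%. GC content was 46.8% for the upstream PLAU start, which held none of these motifs, and 46.0% for this PLG start. The median over all promoters was 58.0%. These matches describe letters and not bound sites.

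The authors deposited TPM values (transcripts relative to a fixed total), a level per transcript length that sums to 1000000 in each library. Levels can therefore be compared between genes, but how deeply a library was read, and with it the counting error, cannot be recovered. Differences were computed on log2(TPM + 0.1), which understates the change of low genes, with limma, over the 11971 genes that averaged 1 TPM or more. METTL16 itself read 26.3 and 25.1 TPM in sgNS against 17.6 and 18.8 TPM in METTL16 KO, and its log2 ratio of -0.50 passed in limma (standard error 0.062, adjusted p = 2.4e-05). Over all genes the median of the log2 fold changes was 0.16, relative to which each value is to be read. All 10 hepatocyte markers examined were expressed, with summed levels of 18116 to 18198 TPM in sgNS and 30958 to 31423 TPM in METTL16 KO. Markers of fibroblasts (7 genes) summed to 3.47 to 3.65 TPM in sgNS and 4.40 to 4.73 TPM in METTL16 KO, and those of endothelium (5 genes) to 4.76 to 5.15 and 2.73 to 3.13 TPM, nearly all of it PECAM1, with KDR and TEK at 0 in all libraries. Leukocyte markers (5 genes) summed to 3.99 to 4.94 TPM in sgNS and 10.6 to 11.4 TPM in METTL16 KO, most of it CD68 (2.72 to 3.40 and 8.57 to 8.86 TPM), a lysosomal protein of macrophages, with PTPRC at 0.15 to 0.48 TPM. The part of these markers in the results below was not tested.

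PLAU was the gene of the 9 with the largest difference between the groups. Its level was 3.14 and 2.47 TPM in the sgNS libraries and 54.4 and 57.1 TPM in the METTL16 KO libraries. Both METTL16 KO libraries lay far above both sgNS libraries, and the libraries of a group lay close together. The mean level was 19.9-fold higher in METTL16 KO, the log2 fold change was 4.27 (standard error 0.10), and it ranked 17 from the largest rise among the 11971 genes tested. In sgNS its mean level exceeded that of 10.3% of the genes tested, and in METTL16 KO that of 73.6%. In bulk RNA, a change in the share of expressing cells and a change in RNA per cell cannot be told apart.
The receptor PLAUR was low in all libraries. It stood at 2.32 and 2.92 TPM in sgNS against 1.70 and 2.46 TPM in METTL16 KO. The groups overlapped, since the higher METTL16 KO library lay between the sgNS libraries, and the log2 fold change was -0.33 (standard error 0.20), or -0.079 without METTL16 KO replicate 1. In sgNS the ligand and the receptor were at like levels, with a ratio of PLAU to PLAUR of 1.35 and 0.846. In METTL16 KO the ratio was 32.0 and 23.2, a log2 difference of 4.67, and such ratios within a library do not depend on its scaling factor.
PLAT, the tissue-type activator, was near the bottom of the table, at 0.54 and 0.38 TPM in sgNS against 0.31 and 0.11 TPM in METTL16 KO. All 4 values were under 1 TPM, so PLAT was not among the genes tested and no fold change is given. The zymogen PLG was at 35.6 and 32.6 TPM in sgNS against 61.8 and 61.9 TPM in METTL16 KO. Both METTL16 KO libraries were higher, with a 1.81-fold higher mean and a log2 fold change of 0.86 (standard error 0.053). The summed hepatocyte markers were also higher in these libraries, as given above, with AFP at a mean of 1765 TPM in sgNS and 10292 TPM in METTL16 KO. Of the 10 markers, 7 were called higher and 2 lower (limma, adjusted p under 0.05), where 50.1% and 25.6% of all genes tested were. The 2 lower ones were TF and APOB, with log2 fold changes of -0.43 and -0.17. The part of these markers in the difference of PLG was not tested. PLG shares sequence with LPA, PLGLB1 and PLGLB2, between which reads could be split. LPA was at most 0.62 TPM, PLGLB2 at most 0.07 TPM and PLGLB1 at 1.60 to 3.11 TPM in the 4 libraries, all below the level of PLG.

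**Figure D1:**
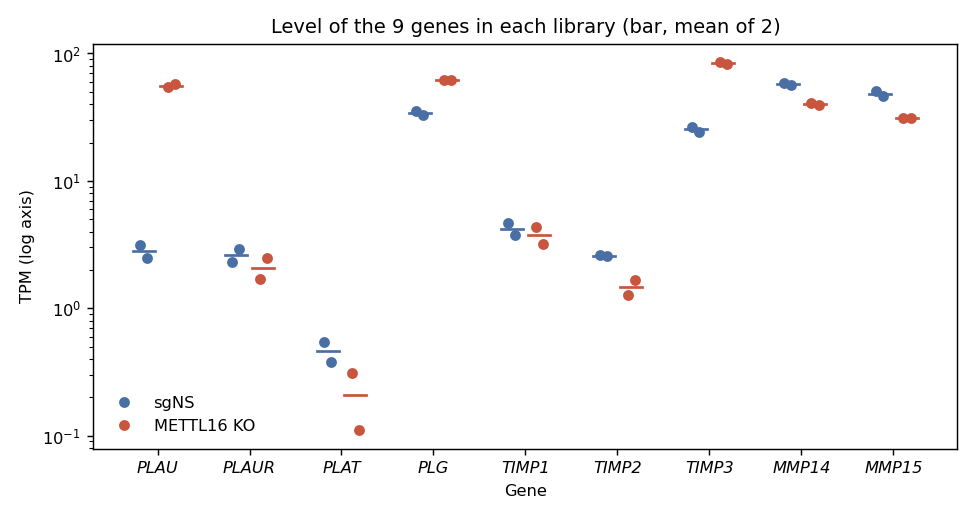
Level in TPM (log axis) of the 9 genes in each library, with sgNS in blue and METTL16 KO in red, points for the 2 libraries of a group and a bar for their mean. PLAU moves from 2.47 and 3.14 TPM to 54.4 and 57.1 TPM, TIMP3 and PLG are higher in METTL16 KO, MMP14, MMP15 and TIMP2 are lower, and the groups of PLAUR and TIMP1 overlap.

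TIMP3 was the inhibitor that differed most. Its level was 26.6 and 24.3 TPM in sgNS and 85.2 and 82.6 TPM in METTL16 KO. The groups were well apart, with a 3.29-fold higher mean in METTL16 KO and a log2 fold change of 1.72 (standard error 0.054). TIMP2 went the other way, at 2.62 and 2.55 TPM in sgNS against 1.27 and 1.66 TPM in METTL16 KO. Both METTL16 KO libraries were lower, with a log2 fold change of -0.79 (standard error 0.18), and the METTL16 KO libraries of this low gene differed from each other more than the sgNS libraries did. TIMP1 was at 4.67 and 3.78 TPM in sgNS against 4.31 and 3.20 TPM in METTL16 KO. Its groups overlapped, the log2 fold change was -0.17 (standard error 0.16), and without METTL16 KO replicate 2 its sign turned, at 0.036.
The membrane protease MMP14 was at 58.7 and 56.8 TPM in sgNS against 41.2 and 39.2 TPM in METTL16 KO. MMP15, its closest relative among the 9 genes, was at 50.8 and 46.1 TPM in sgNS against 31.2 and 30.9 TPM in METTL16 KO. Both were lower in both METTL16 KO libraries, with log2 fold changes of -0.52 (standard error 0.049) and -0.64 (standard error 0.057).
Of the 8 genes tested, 3 (PLAU, PLG and TIMP3) were called higher by limma (adjusted p under 0.05) and 3 (TIMP2, MMP14 and MMP15) lower, where 50.1% of all genes tested were called higher, 25.6% lower and 75.7% in either direction. When a log2 fold change of 1 or more in size was also required, 2 passed as higher (PLAU and TIMP3) and 0 as lower, against 7.7% and 3.77% of all genes. With quantile normalization 1 passed as lower, TIMP2 at -1.15, as did 698 of all 11971 genes tested. The groups did not overlap for the same 6 genes, 3 of them higher and 3 lower, where 56.8% of all genes tested had higher and 30.7% had lower groups without overlap (87.4% in all). The median log2 fold change of the 8 genes was -0.25, against 0.16 over all genes. The list was made with this contrast known, and nothing is read from these counts.

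**Figure D2:**
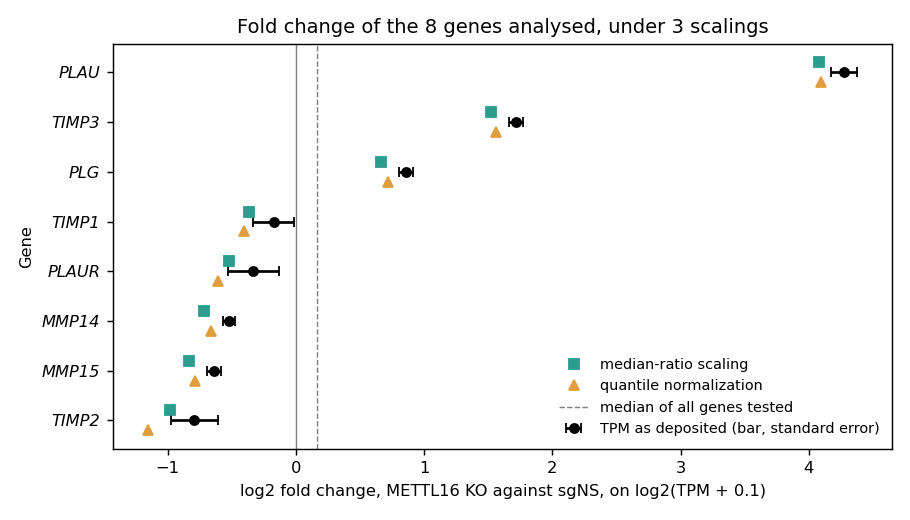
Log2 fold change of METTL16 KO against sgNS for the 8 genes tested (x axis, on log2(TPM + 0.1)), with limma's standard error for the TPM as deposited and with squares and triangles for 2 other scalings. The dashed line is the median of all genes at 0.16. PLAU, TIMP3 and PLG lie to the right of 0 and the other 5 genes to the left under each scaling.

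The order of the levels differed between the groups. In sgNS, MMP14 was highest of the 9 genes, followed by MMP15, PLG, TIMP3, TIMP1, PLAU, PLAUR, TIMP2 and PLAT. PLAU, PLAUR and TIMP2 did not differ beyond their spread there, since their libraries overlapped between 2.32 and 3.14 TPM. In METTL16 KO the order was TIMP3, PLG, PLAU, MMP14, MMP15, TIMP1, PLAUR, TIMP2 and PLAT, and no neighbours in it had overlapping libraries.
The 4 TIMP genes together were listed at 34.9 and 32.1 TPM in sgNS against 92.7 and 88.9 TPM in METTL16 KO. TIMP3 held 76.3% and 75.8% of this sum in sgNS and 91.9% and 93.0% in METTL16 KO, and TIMP2 held 7.52% and 7.94% against 1.37% and 1.87%. The MMP genes together were listed at 185.9 and 172.9 TPM in sgNS against 127.6 and 124.3 TPM in METTL16 KO. MMP14 kept a like share of that sum, 31.5% and 32.9% in sgNS and 32.3% and 31.5% in METTL16 KO. The ratio of the summed MMP to the summed TIMP levels was 5.33 and 5.39 in sgNS and 1.38 and 1.40 in METTL16 KO, a log2 difference of -1.95. For MMP14 and TIMP2, the pair that acts on pro-MMP2, the ratio was 22.4 and 22.3 in sgNS and 32.4 and 23.6 in METTL16 KO. The log2 difference was 0.31, and without METTL16 KO replicate 1 it was 0.080. These are ratios of mRNA levels, and protein was not measured in these libraries.

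**Figure D3:**
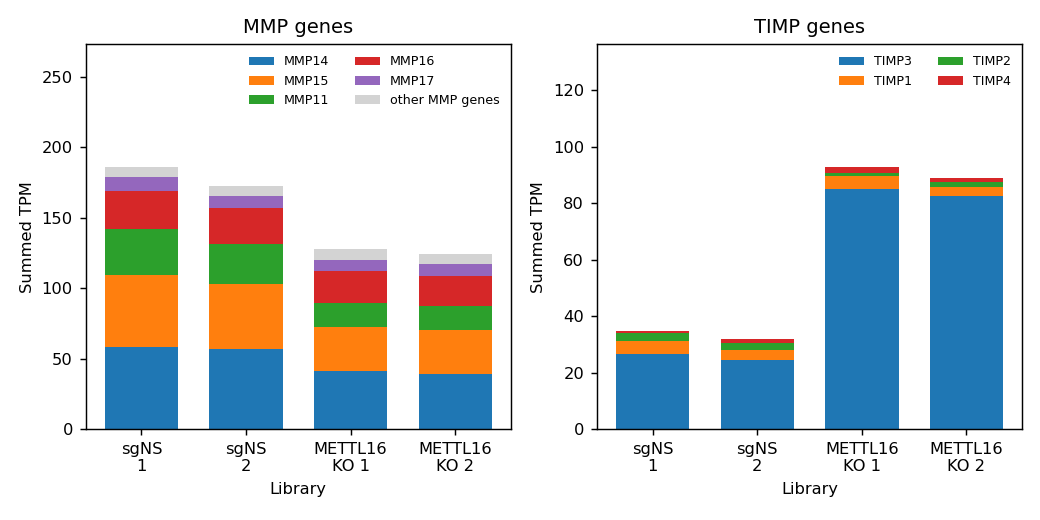
Summed TPM of the MMP genes (left) and of the 4 TIMP genes (right) in each of the 4 libraries, with a colour per gene, both axes starting at 0. The MMP sum is 185.9 and 172.9 TPM in sgNS and 127.6 and 124.3 TPM in METTL16 KO, with MMP14 and MMP15 as its largest parts, and the TIMP sum goes from 34.9 and 32.1 to 92.7 and 88.9 TPM, with TIMP3 as its largest part.

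To place these genes in their pathway, 107 further genes on 8 lists were examined, of which 58 were tested. The lists were written with earlier results of these data known, which limits what their calls and p-values can show. At an adjusted p under 0.05 in limma, 24 of the 58 rose and 24 fell (41.4% each), where 50.1% and 25.6% of all genes did. Median-ratio scaling gave 20 higher and 30 lower, and quantile normalization gave 22 and 28. Of the 58, F2RL1, SPINT1 and MMP23B averaged under 1 TPM in 1 group and entered the test only through the other, where they were high, and without these 3 genes 22 of 55 rose and 23 fell. The median log2 fold change of the 58 genes was 0.062, against 0.16 over all genes.
Of 11 inhibitors and receptors of plasmin and its activators, 5 rose and 5 fell (median log2 fold change 0.056). SERPINA5, the protein C inhibitor, which also inhibits urokinase, rose from 150.7 ± 1.8 to 449 ± 2.1 TPM (mean ± SD, n = 2 each), with an adjusted p of 2.8e-11 in limma. A2M, a broad protease inhibitor of plasma, rose from 1226 ± 7.4 to 1657 ± 6.6 TPM. CPB2, which removes the lysines that plasminogen binds on fibrin, fell from 142 ± 10 to 76.4 ± 2.0 TPM. SERPINF2, the main inhibitor of plasmin, was at 164 ± 6.9 and 170 ± 2.1 TPM, with an adjusted p of 0.22 in limma, and turned to a fall of the log2 value under median-ratio scaling (-0.14).
Of the plasminogen receptors on that list, S100A10 rose by 0.74 on the log2 scale (adjusted p = 4.1e-09, limma) and its partner ANXA2 by 0.20. The rise of ANXA2 was 0.0058 with median-ratio scaling and no longer passed. ENO1, a glycolytic enzyme that also binds plasminogen, fell by 0.38 and PLGRKT fell by 0.47 on the log2 scale, and both were lower under each scaling tried.

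Of the 6 proteases that can activate pro-urokinase, 3 rose and 1 fell (median log2 fold change 0.55). F12, coagulation factor XII, rose from 5.12 ± 0.049 to 19.0 ± 0.22 TPM (mean ± SD, n = 2 each). ST14 (matriptase), a membrane serine protease, rose from 4.55 ± 0.078 to 11.7 ± 1.2 TPM, while HPN (hepsin), the membrane serine protease of hepatocytes, fell from 24.3 ± 0.52 to 7.44 ± 0.41 TPM. On the log2 scale these changes were 1.87, 1.34 and -1.69 (adjusted p = 4.1e-09, 3.5e-07 and 5.7e-09 in limma). The lysosomal protease CTSL rose by 0.87 on the log2 scale, and CTSB was at 127 ± 5.1 and 123 ± 1.7 TPM, which passed as lower with median-ratio scaling (-0.23).
Of 8 partners and clearance receptors of the urokinase receptor, 3 rose and 3 fell (median -0.037). VTN (vitronectin), a matrix ligand of the urokinase receptor, rose from 453 ± 0.87 to 1350 ± 29 TPM (mean ± SD, n = 2 each), and EGFR from 64.7 ± 0.98 to 131.3 ± 0.17 TPM. LRP1, the endocytic receptor that takes up many proteases in complex with their inhibitors, fell from 84.0 ± 8.9 to 29.8 ± 1.1 TPM, and the related receptor SORL1 from 5.21 ± 0.21 to 1.46 ± 0.092 TPM. The largest adjusted p of these 4 genes was 7.2e-07 in limma, for SORL1. IGF2R, which binds the urokinase receptor, fell by 0.46 on the log2 scale.
On the list of pericellular serine proteases and their targets, which shares ST14 and HPN with that of the activators, 4 of 7 genes rose and 2 fell (median 0.34). Among the 4 were F2RL1 and SPINT1, which entered the test only through METTL16 KO. F2RL1, a receptor that proteases switch on by cleavage, was at 0.21 and 0.36 TPM in sgNS against 4.13 and 5.79 TPM in METTL16 KO (log2 fold change 3.72). SPINT1, an inhibitor of matriptase and hepsin, was at 0.880 ± 0.057 and 3.29 ± 0.21 TPM (mean ± SD, n = 2 each), and MET, the receptor of hepatocyte growth factor, had a log2 fold change of 0.26 that no longer passed with median-ratio scaling (0.066). The ligand HGF was at most 0.16 TPM in the 4 libraries.

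Few secreted metalloproteases were expressed. Of 16 MMP genes listed apart from the membrane-type genes, 13 were under 1 TPM in all libraries, 9 of them at 0 in all. Among these 9 was MMP2, the protease that MMP14 and TIMP2 act on, while MMP9 was at most 0.04 TPM. Of the 3 tested (median log2 fold change -0.84), MMP11 fell from 30.5 ± 3.3 to 17.0 ± 0.21 TPM (mean ± SD, n = 2 each), MMP23B was at 3.29 ± 0.23 and 0.625 ± 0.092 TPM, and MMP19 rose from 1.55 ± 0.099 to 2.59 ± 0.18 TPM. Of the 3 other membrane-type genes tested (median -0.18), MMP24 rose by 1.06 on the log2 scale from 1.66 ± 0.13 TPM, and by 0.87 with median-ratio scaling. MMP16 fell by 0.26, and MMP17 was at 9.18 ± 0.70 and 8.11 ± 0.25 TPM with an adjusted p of 0.091 in limma, and passed as lower with median-ratio scaling (-0.37).
Of 12 regulators of metalloproteases, 4 rose and 6 fell (median log2 fold change -0.051). TFPI2, a Kunitz-type inhibitor of plasmin and matrix proteases, was at 0.92 and 1.95 TPM in sgNS against 9.61 and 10.3 TPM in METTL16 KO (log2 fold change 2.79, adjusted p = 1.8e-06, limma). FURIN, the convertase that activates MMP14 and MMP15, rose from 197 ± 20 to 298 ± 3.2 TPM (mean ± SD, n = 2 each), and PCSK5, of the same convertase family, from 2.57 ± 0.085 to 6.43 ± 0.035 TPM. PCOLCE2 fell from 79.4 ± 0.62 to 26.9 ± 0.52 TPM, PCOLCE from 9.03 ± 0.85 to 3.85 ± 0.68 TPM and SPOCK2 from 4.12 in both libraries to 1.76 ± 0.078 TPM. PCOLCE and PCOLCE2 encode enhancers of procollagen processing. RECK, a membrane-anchored inhibitor of MMP14, fell by 0.89 on the log2 scale, and BSG, which induces MMP genes in neighbouring cells, fell by 0.19 from 773 ± 7.6 TPM. The fourth inhibitor of the TIMP family, TIMP4, was at 0.98 and 1.43 TPM in sgNS against 1.97 and 1.40 TPM in METTL16 KO, and its groups overlapped (adjusted p = 0.11, limma).
Of 10 ADAM and ADAMTS genes, a family that TIMP3 inhibits in part, 4 rose and 5 fell (median -0.27). ADAMTS9 fell from 12.7 ± 0.19 to 2.51 ± 0.21 TPM (mean ± SD, n = 2 each), ADAMTS12 from 9.72 ± 0.60 to 1.97 ± 0.18 TPM and ADAMTS19 from 4.17 ± 0.21 to 1.59 ± 0.11 TPM. The largest adjusted p of the 3 was 9.1e-06 in limma. ADAM10 and ADAM17, which shed proteins from the cell surface, rose by 0.61 and 0.44 on the log2 scale, and ADAM9 fell by 0.49.

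**Figure D4:**
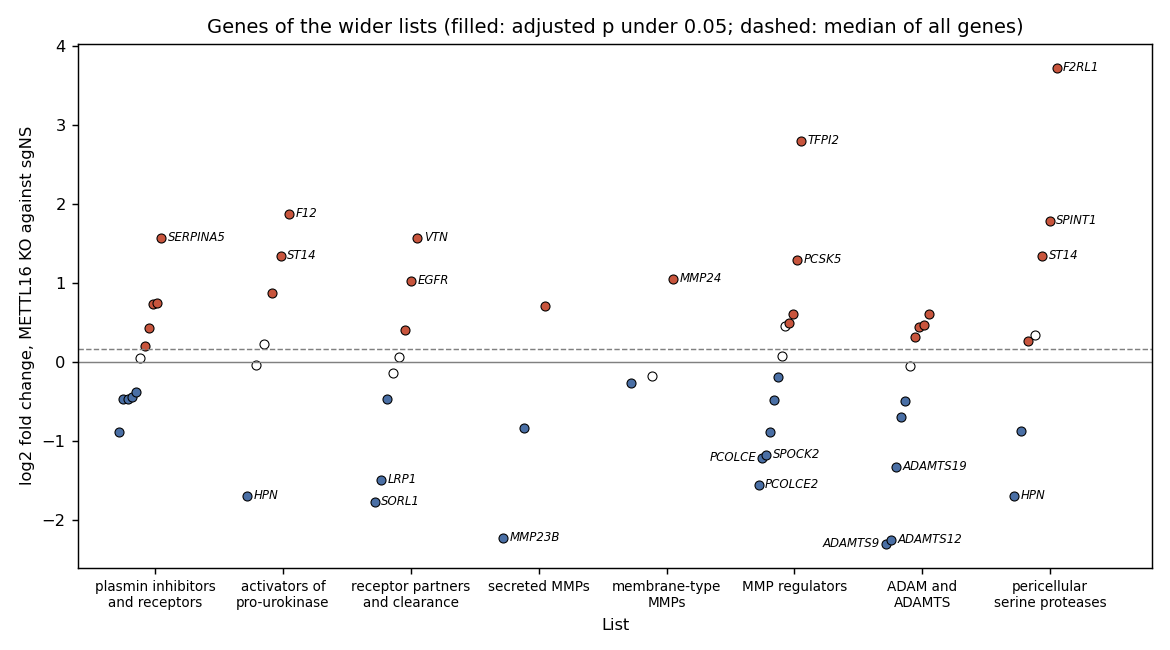
Log2 fold change of METTL16 KO against sgNS (y axis) for the 58 tested genes of the 8 lists (x axis), ST14 and HPN shown on 2 lists, with red and blue for genes past an adjusted p of 0.05 as higher and lower and white for the others. The dashed line is the median of all genes at 0.16, and labelled genes passed with a log2 fold change of 1 or more in size. Values reach from -2.30 for ADAMTS9 to 3.72 for F2RL1.

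The genes with profiles most like those of PLAU and TIMP2, the highest and the lowest log2 fold change of the 8 genes tested, were looked up by Euclidean distance on centred log2(TPM + 0.1) over the 4 libraries, which are 2 groups of 2 and so rank mainly by fold change. For PLAU they were AVPR1A (distance 0.079), MALRD1 (0.13) and CXCL10 (0.22). AVPR1A encodes a vasopressin receptor and was at 0.055 ± 0.021 and 2.76 ± 0.049 TPM (mean ± SD, n = 2 each). MALRD1 was at 0.145 ± 0.035 and 4.24 ± 0.0071 TPM, and CXCL10, an interferon-induced chemokine, at 1.77 ± 0.23 and 41.6 ± 1.0 TPM. AVPR1A and MALRD1 averaged under 1 TPM in sgNS and entered the test only through METTL16 KO. The added 0.1 understates their change, so their place beside PLAU depends on it. For TIMP2 they were DCLK2 (distance 0.017), TEX19 (0.043) and MFAP2 (0.092), of which MFAP2, a protein of microfibrils, was at 33.1 ± 0.62 and 18.8 ± 2.4 TPM.

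The 9 genes lie on 9 chromosomes, and the genes around PLAU, TIMP3 and TIMP2 had other values than these 3. PLAU lies on the plus strand of chromosome 10 of GRCh38 from 73909177 to 73917496 in GENCODE release 44. The 13 other genes tested within 500 kb had log2 fold changes of -0.73 to 0.90 with a median of 0.027, against 4.27 for PLAU. TIMP3 lies on the plus strand of chromosome 22 from 32801705 to 32863041, where the 2 other genes tested within 500 kb, RTCB and FBXO7, had 0.40 and 0.27. TIMP2 lies on the minus strand of chromosome 17 from 78852977 to 78925387. There all 7 genes tested within 500 kb had positive log2 fold changes, with a median of 0.80 and SOCS3, a feedback inhibitor of cytokine signalling, at 2.81, against -0.79 for TIMP2.
Some of the 9 genes overlap others on the opposite strand, and whether the counting used the strand is not given in the sources used here. C10orf55, whose exons overlap those of PLAU on the opposite strand, had 0.12 TPM in each sgNS library against 1.42 and 1.15 TPM in METTL16 KO. Reads of the 2 genes cannot be told apart without strand, and C10orf55 was at a small fraction of the level of PLAU. SYN3, in which TIMP3 lies on the opposite strand without shared exons, was at 0.61 to 1.15 TPM in the 4 libraries, and SYN1, in which TIMP1 lies, at most 0.02 TPM.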

How the data were processed

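RNA-seq of 2 sgNS and 2 METTL16 KO libraries of Huh7 cells was analysed from 1 deposited table. Before deposit the authors used Cutadapt for trimming, STAR for alignment to GRCh38 and RSEM for levels per gene. Versions and annotation are not given in the sources used here. The paper calls the unit RPKM, but the deposited columns each total 1000000, as TPM do, and were taken as TPM. The labels name both a Ribozero RNA and a stranded mRNA kit. TPM keeps no depth, so precision rests on the spread between libraries, which the paper calls biological replicates.

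Genes with a mean of at least 1 TPM were tested on log2(TPM + 0.1) by limma 3.58.1 in R 4.3.3, with a mean-variance trend, Benjamini-Hochberg adjustment over all 11971 genes and no block. An exact permutation test of 2 against 2 libraries cannot go below p = 0.33. The fit was first tested on simulated data.

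The members and lists were chosen with earlier results of these data known. The named genes were the 9 members, list genes past an adjusted p of 0.05 and a log2 change of 1 or more in size (at most 6 a list) or at 50 TPM or more, the 3 nearest profiles of 2 members, and METTL16. Other list genes named (among them PLGRKT, IGF2R, RECK, TIMP4 and HGF), sequence copies, neighbours and overlapping genes were chosen after their values were seen. Alternatives were pseudocounts of 1 and 0.01, no filter, a minimum of 5 TPM, limma without trend, quantile normalization, median-ratio scaling, the replicate block and each library left out, where the lone library of a group is assumed to vary like the other group. 1 list gene that the rule names is not reported here. Promoters were searched with Python 3.11.15.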

Additional observations from a re-analysis of the deposited data

How the results depend on the processing

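Of 93 log2 fold changes of the 8 genes tested under 12 alternatives, 92 kept their sign. The exception was TIMP1 (-0.17) without METTL16 KO replicate 2, at 0.036; leaving out each library gave -0.38 to 0.036. PLAU ranged from 3.90 to 4.44, TIMP3 from 1.52 to 1.78, PLG from 0.66 to 0.92, TIMP2 from -1.15 to -0.54, PLAUR from -0.61 to -0.079, MMP14 from -0.72 to -0.49 and MMP15 from -0.83 to -0.57. A minimum of 5 TPM leaves out PLAUR, TIMP1 and TIMP2 and so gave 2 lower calls of these genes in place of 3, while median-ratio scaling, quantile normalization and leaving out METTL16 KO replicate 2 gave 4. Past the fold threshold, quantile normalization gave 1 lower call in place of 0. Over all genes, 922 higher calls with the fold threshold became 1553 with no filter, 575 with a minimum of 5 TPM and 586 with quantile normalization. The 451 lower calls became 697 (median-ratio scaling) and 698 (quantile normalization), and the 3065 lower calls without a fold threshold became 4651 with median-ratio scaling, which also took the share of higher calls from 66.2% to 46.5% (quantile normalization 51.0%) and the median log2 fold change from 0.16 to -0.033. On the wider lists, a minimum of 5 TPM gave 6 higher and 6 lower calls past the fold threshold in place of 10 and 10, with fewer genes tested. Of 48 list genes called, 43 kept sign and call under every alternative that tested them, and ADAMTS20, ADAMTS6, ANXA2, CAV1 and MET lost the call under at least 1. Of the 10 not called, 9 were called under at least 1 (ADAM15, CTSB, KLKB1, LRPAP1, MMP17, PCSK6, SERPINF2, TIMP4 and TMPRSS6), of which SERPINF2 (-0.14) and PCSK6 (-0.11) turned to called falls with median-ratio scaling.
The groups share replicate numbers, but deviations of same-numbered libraries had a correlation of -0.044 over genes. With the replicate block METTL16 was at -0.50 and was still called by limma, and the list calls were 25 higher and 24 lower. METTL16 kept its fall and call under all 12 alternatives.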
